A study of Mus musculus with 12 samples.

Results

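PD173074, a small-molecule inhibitor of the fibroblast growth factor receptors (FGFRs), was compared with its vehicle DMSO in tumourspheres of 3 mouse spindloid mammary tumour cell lines, A1005, A1129 and A1471. These are the 6 libraries of the 12 in the series that carry PD173074 alone or DMSO, and they were paired by cell line. The 3 lines came from separate MMTV-Metmt;Trp53fl/+;Cre tumours, so every library, the DMSO ones included, carries the mutant Met transgene under the mouse mammary tumour virus promoter and the Cre-targeted Trp53 allele. Treatment was for 24 h at 1 µM, and 3 further libraries received Crizotinib, a Met inhibitor, and 3 received both agents (Combo). The spheres grew without serum in medium holding EGF, basic FGF (an FGFR ligand), insulin and heparin. RNA was sequenced and deposited as counts of reads per gene, given below as CPM, the counts of a gene in each 1000000 counts of a library after trimmed-mean scaling. Values by library are in the order A1005, A1129, A1471. Each line is 1 culture per treatment. Unless a fit of fewer libraries is named, p-values measure the spread left over all 12 libraries once line and treatment are fitted. The Crizotinib and Combo libraries are part of that spread.

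FGFRs and Met are receptor tyrosine kinases that feed the same Ras-ERK and PI3K-Akt cascades. ERK activity switches on the ETS factors Etv1, Etv4 and Etv5 and a set of its own inhibitors, among them the Sprouty, Spred and Dusp proteins, and these transcripts are used as readouts of the pathway. In this comparison Met was left uninhibited while the FGFRs were blocked.

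The 12 libraries held 13031492 to 17750476 counts, and no 2 of them were identical. Mesenchymal marker genes summed to between 3485 and 4568 CPM in DMSO and between 3109 and 5432 CPM with PD173074. The epithelial cadherin Cdh1 had at most 2 counts in any of the 6 libraries. Endothelial markers summed to at most 0.925 CPM. Of 11 immune markers 6 were at 0 in all 6 libraries, including Cd3e and Lyz2, but the pan-leukocyte gene Ptprc had 174 counts in A1005 with DMSO and 339 with PD173074 against at most 2 in the other lines. The A1005 libraries differed in depth, at 13031492 counts in all with DMSO and 16957535 with PD173074. Adipocyte markers summed to between 5.80 and 32.0 CPM in DMSO and between 3.63 and 16.7 CPM with PD173074, with Adipoq and Lep at 0. Luminal epithelial markers summed to between 19.9 and 75.6 CPM and then to between 11.9 and 46.8 CPM, and basal markers to between 0.0691 and 7.18 CPM and then to between 0.358 and 14.9 CPM. Mitochondrially encoded transcripts took 1.21% to 1.29% of counts in DMSO and 1.53% to 1.66% with PD173074, without overlap. The part of this shift in the results below was not tested.

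With PD173074 alone, 296 of 13836 genes tested were called at an adjusted p below 0.05, which is 2.14% of them. Of these, 224 were higher (1.62% of genes tested) and 72 were lower (0.520%). The rises were also the larger changes, at a median log2 fold change of 1.55, while the genes called lower had a median of -0.85 and all genes tested one of 0.00365. All 3 lines moved the same way for 280 of the 296 genes, and for 47.3% of all genes tested. The call itself favours genes whose lines agree, so the count of 280 is a description. A step from 0 to 1 count, as for Klhl38 in A1129 and A1471, is taken as a direction there. The test was edgeR's quasi-likelihood test with cell line as a block and Benjamini-Hochberg adjustment, and the lowest adjusted p was 0.00309. Without the block no gene was called by edgeR (307 had an unadjusted p below 0.05) and 17 were called by DESeq2. Leaving out A1471 left 4 genes called (Mme, Klhl38, Il1rn and Nrep), leaving out A1005 left 59 and leaving out A1129 left 131. Of 93 called genes that were taken up by the naming rule or picked out after their values were seen, 29 were still called without A1005, 49 without A1129 and 4 without A1471. Il1rn, Klhl38, Kng1, Col1a1 and Col1a2 could not be tested without A1005, the line that held nearly all their counts. The same was so for Cpne7 and Rasl12 without A1129 and Postn without A1471. None changed direction where it was tested, and Mme and Nrep alone were called in all 3 of these fits. In the 6 DMSO and PD173074 libraries alone, paired by line, 77 of the 78 named genes that could be tested were called. Leaving out a line moved 9 of the 93 by over 1.5 times. Without A1005 the log2 fold change was 3.72 for C1ra, 5.02 for Masp1, 6.27 for Orm1, 3.39 for Wnt6, 3.01 for Spib, -0.83 for Fabp4 and -1.93 for Plet1. It was 6.496 without A1129 and 1.90 without A1471 for Col11a1, and 7.995 without A1471 for Cd74.

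**Figure D1:**
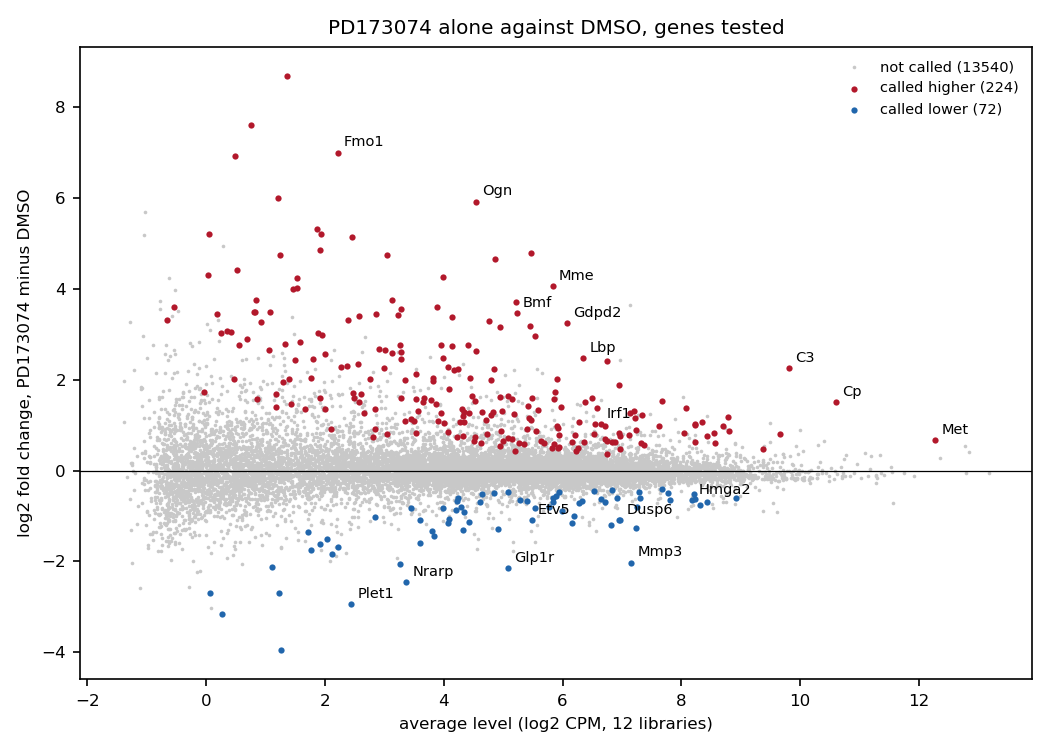
Each point is 1 of 13836 genes tested, with its average level over 12 libraries in log2 CPM on the horizontal axis and the log2 fold change of PD173074 minus DMSO on the vertical axis. The 224 genes called higher (red) reach further from 0 than the 72 called lower (blue), and Met sits at the far right.

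The 3 lines responded to different extents. A difference of more than 2-fold in CPM was seen for 1399 genes in A1471, of which 1099 were higher. In A1005 there were 957 such genes, 555 of them higher, and in A1129 there were 685, 436 of them higher. Among the 296 called genes, the change was largest in A1471 for 176 genes, in A1005 for 89 genes and in A1129 for 31. Across all 13836 genes, the differences of 2 lines correlated with r between 0.43 and 0.51. This is a description across genes, which are not independent replicates.

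Transcripts of the targeted receptors were not called different. Fgfr1 (ENSMUSG00000031565, mm10 chromosome 8, 25513654 to 25575718) stood at 319, 256 and 286 CPM in DMSO and 244, 248 and 246 CPM with PD173074. The difference was not called (log2 fold change -0.23 ± 0.13, adjusted p = 0.445; 95% interval -0.52 to 0.07). Per kilobase of exon, Fgfr1 was the main receptor of the family, at 25.9 to 32.4 CPM per kb in DMSO, while Fgfr3 was at most 0.207 CPM per kb there. Fgfr2 had 0, 0 and 1 counts in DMSO and 0, 10 and 5 counts with PD173074, and Fgfr4, which was not tested, had at most 3 counts in any of the 6 libraries. Of the adaptors, Frs2, which couples FGFRs to Ras, had a log2 fold change of 0.30 (adjusted p = 0.186). In all, 0 of 16 tested genes for FGF receptors, adaptors and ligands were called (median log2 fold change 0.04), and 4 of the 16 had an unadjusted p below 0.05. DESeq2 with the same block called 1 of the 16 and limma-voom called 0.

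Met itself rose. Its transcript (ENSMUSG00000009376, mm10 chromosome 6, 17463800 to 17573980) stood at 5091, 4978 and 2613 CPM in DMSO and 8327, 6881 and 4578 CPM with PD173074. The level was higher in each line, by 0.71, 0.47 and 0.81 on the log2 scale, although A1471 with PD173074 stayed below the DMSO level of the other lines. The rise was small but called (log2 fold change 0.67 ± 0.15, adjusted p = 0.0453), and the adjusted p was 0.243, 0.0684 and 0.3 without A1005, A1129 and A1471 in turn. Reads from the transgene and from the endogenous gene, whose locus the study describes as amplified in this model, cannot be told apart. The Met ligand Hgf was near background in A1129 and A1471 and was not called, at 4.45, 0.0658 and 0 CPM in DMSO and 3.32, 0.215 and 0.285 CPM with PD173074. Met was the only called gene among 10 tested in the Met receptor and ligand list (2 calls there by DESeq2, 3 in the 6 libraries alone).

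The 6 called genes of the ERK lists below were all lower. Dusp6, a phosphatase that inactivates ERK, stood at 225, 204 and 118 CPM in DMSO and 104, 104 and 51.7 CPM with PD173074 (log2 fold change -1.09 ± 0.18, adjusted p = 0.0152). Etv5 stood at 77.99, 64.8 and 63.3 CPM in DMSO and 32.5, 36.6 and 27.7 CPM with PD173074 (log2 fold change -1.09 ± 0.15, adjusted p = 0.0082), and Etv4 at 225, 147 and 213 CPM in DMSO and 107, 80.8 and 84.00 CPM with PD173074 (log2 fold change -1.08 ± 0.23, adjusted p = 0.042). In all 3 genes every PD173074 library lay below every DMSO library, as was so for 3.07% of all genes tested, while 3.35% lay wholly above. Spry4, a feedback inhibitor of receptor tyrosine kinases, stood at 9.91, 24.6 and 18.6 CPM in DMSO and 3.38, 13.9 and 9.54 CPM with PD173074 (log2 fold change -1.09 ± 0.21, adjusted p = 0.0283). Etv1 (log2 fold change -0.70 ± 0.15, adjusted p = 0.0485) and the chromatin protein gene Hmga2 (log2 fold change -0.64 ± 0.10, adjusted p = 0.0125) fell less. Without A1471 the adjusted p was 0.295 for Dusp6, 0.167 for Etv5, 0.477 for Etv4, 0.211 for Spry4, 0.244 for Etv1 and 0.162 for Hmga2.

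Of 12 feedback inhibitors, 2 were called lower and none higher, 8 were lower and 0 higher in all 3 lines, and the median log2 fold change was -0.61. Il17rd (log2 fold change 0.88, adjusted p = 0.36) and Spry1 (log2 fold change 0.12, adjusted p = 0.851) had higher values without a call. Of 29 tested ERK target genes, 4 were called lower and none higher. In all 3 lines 17 were lower and 5 were higher. The median was -0.58, with a range from -1.09 to 2.33. With the spread estimated from the 6 DMSO and PD173074 libraries alone, still paired by line, 8 of the 12 and 15 of the 29 were called, and 776 of 12598 genes in all. Cyclin D1 (Ccnd1) stood at 709, 1217 and 1060.1 CPM in DMSO and 440.1, 658 and 517 CPM with PD173074, lower in every line but with a wide error (log2 fold change -0.88 ± 0.26, adjusted p = 0.129). Spry2 (log2 fold change -0.68 ± 0.18, adjusted p = 0.0851), Dusp4 (log2 fold change -1.21 ± 0.39, adjusted p = 0.167) and Areg, an EGF receptor ligand (log2 fold change -0.88 ± 0.24, adjusted p = 0.096), were not called either. In the 6 libraries alone these genes passed, with an adjusted p of 0.00869 for Ccnd1, 0.0173 for Spry2, 0.0083 for Dusp4 and 0.019 for Areg. Egr1, an immediate-early gene, had higher values in place of lower ones, at 25.6, 30.4 and 7.39 CPM in DMSO and 59.9, 59.8 and 105 CPM with PD173074, most of all in A1471 (adjusted p = 0.101). Myc had a log2 fold change of -0.26 and Fosl1 of -0.35 (adjusted p = 0.539 and 0.567). Dusp1, a phosphatase induced by stress, was called higher (log2 fold change 1.12 ± 0.21, adjusted p = 0.0265) and was picked out after its values were seen.

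Few cell cycle transcripts were called. Of 36 S phase and mitosis genes, 0 were called (1 by DESeq2, 0 by limma-voom, 3 in the 6 libraries alone), 8 had an unadjusted p below 0.05, and the median log2 fold change was -0.19, with a range from -0.46 to 0.05. Of the 36, 22 were lower in all 3 lines and 0 were higher in all 3. Of all genes tested, 47.3% moved the same way in all 3 lines, counting both directions. The shift was small and was largest in A1471. The median difference was -0.11 in line A1005, -0.04 in line A1129 and -0.36 in line A1471. The proliferation marker Mki67 stood at 266, 486 and 512 CPM in DMSO and 289, 568 and 344 CPM with PD173074, lower in A1471 only (log2 fold change -0.07, 95% interval -0.58 to 0.43). Of 20 tested G1 cyclins, kinases and E2F regulators, 0 were called (1 by DESeq2, 0 by limma-voom, 3 in the 6 libraries alone) and 4 had an unadjusted p below 0.05. In this list 8 genes were lower in all 3 lines and 1 was higher in all 3. Pimreg, a mitotic regulator outside those lists, was called lower by a small step, at 82.98, 87.2 and 84.7 CPM in DMSO and 59.8, 65.4 and 59.4 CPM with PD173074 (log2 fold change -0.47 ± 0.09, adjusted p = 0.0228).

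**Figure D2:**
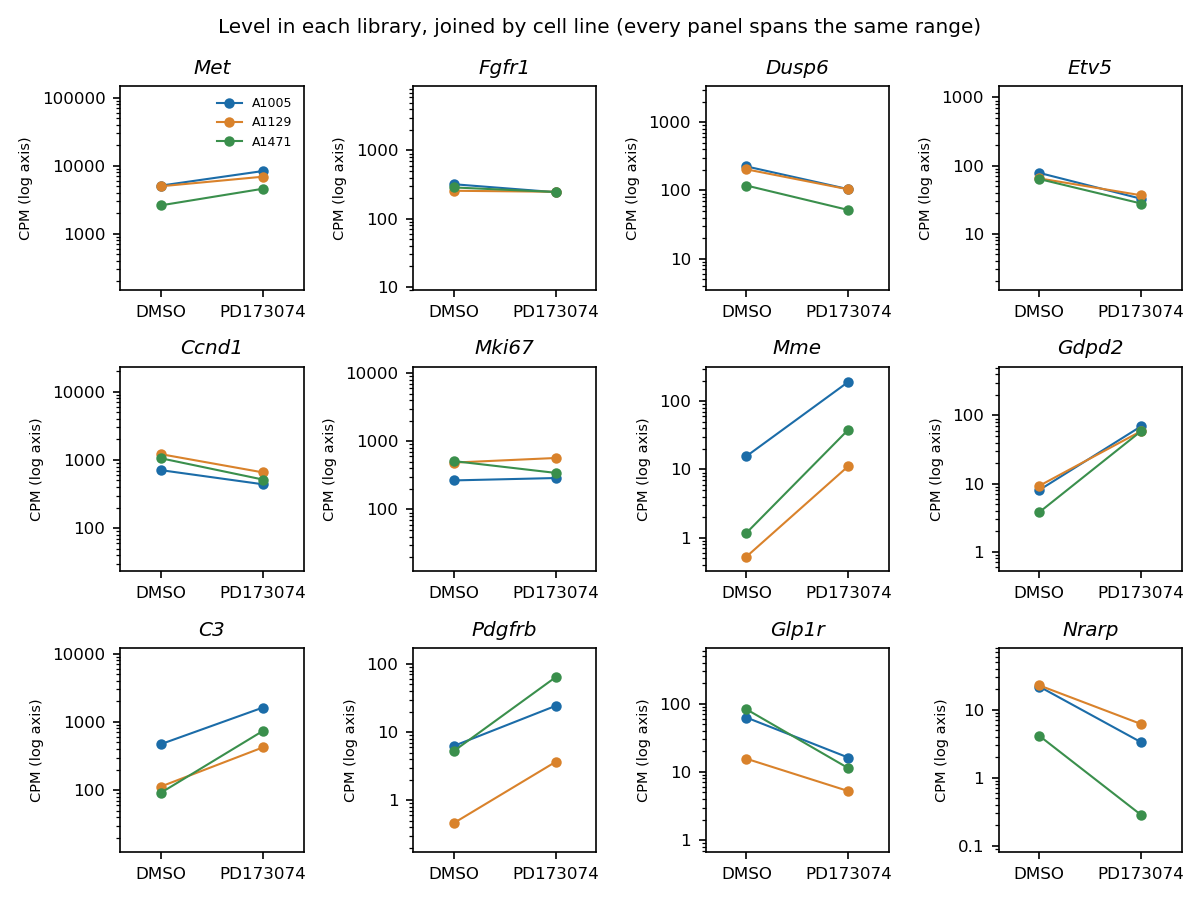
CPM in each library on a log axis for 12 genes, with DMSO on the left, PD173074 on the right and the libraries of a cell line joined by a line. All panels span the same number of log units, so the slopes can be compared: Met rises and Dusp6 and Etv5 fall gently, Fgfr1 and Mki67 stay nearly level, and Mme, Gdpd2, C3 and Pdgfrb rise steeply in all 3 lines.

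The change with the lowest p was a rise of Mme. Mme encodes neprilysin, a cell surface peptidase, and its gene spans 63241537 to 63386030 on mm10 chromosome 3. It stood at 15.7, 0.526 and 1.17 CPM in DMSO and 194, 11.2 and 38.5 CPM with PD173074. The lines started from very different levels, and each rose (log2 fold change 4.06 ± 0.34, adjusted p = 0.00309). Prss23, a secreted serine protease, rose from a low level in all lines, at 1.01, 2.04 and 13.1 CPM in DMSO and 7.74, 11.7 and 118 CPM with PD173074 (log2 fold change 2.97 ± 0.29, adjusted p = 0.00314). Gdpd2, a glycerophosphodiester phosphodiesterase gene on chromosome X, reached nearly the same level in all 3 lines, at 8.04, 9.27 and 3.80 CPM in DMSO and 69.5, 58.97 and 59.01 CPM with PD173074 (log2 fold change 3.24 ± 0.37, adjusted p = 0.00425). Nrep, a neuronal regeneration protein gene, stood at 0.781, 1.84 and 0.345 CPM in DMSO and 8.10, 22.4 and 63.6 CPM with PD173074 (log2 fold change 4.78 ± 0.60, adjusted p = 0.00622). Bmf, a pro-apoptotic BH3-only member of the Bcl2 family, stood at 3.51, 1.25 and 1.86 CPM in DMSO and 28.7, 8.87 and 38.6 CPM with PD173074 (log2 fold change 3.46 ± 0.42, adjusted p = 0.00558), and it was the one called gene of 15 tested in that family. Without A1471, the adjusted p of Prss23, Gdpd2 and Bmf was 0.092, 0.122 and 0.144.

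Many of the largest rises started from almost nothing, so counts describe them better than folds. Ogn, which encodes the small leucine-rich proteoglycan osteoglycin, had 13, 3 and 0 counts in DMSO and 587, 175 and 216 counts with PD173074. The flavin monooxygenase gene Fmo1 had 1, 0 and 0 counts in DMSO and 212, 5 and 14 counts with PD173074. Daam2, a formin linked to Wnt signalling, had 1, 1 and 1 counts in DMSO and 11, 20 and 104 counts with PD173074. These genes were on in all 3 lines with PD173074, with A1005 highest for Fmo1 and A1471 highest for Daam2. The ratio of PD173074 to DMSO over the summed counts was 220.2 for Fmo1 (95% exact interval 39.1 to 8736) and 42.9 for Daam2 (14.4 to 210.6), and the intervals cover counting error only. Other large rises were strongest in 1 line. Klhl38, a kelch-family gene, had 3, 0 and 0 counts in DMSO and 163, 1 and 1 counts with PD173074. Kng1, the kininogen gene, had 11, 0 and 0 counts in DMSO and 249, 3 and 1 counts with PD173074, and the lymphoid ETS factor gene Spib had 0, 1 and 2 counts in DMSO and 144, 3 and 23 counts with PD173074. Cd74, the invariant chain of MHC class II, had 0, 0 and 3 counts in DMSO and 78, 1 and 33 counts with PD173074. Spib and Cd74 counts with PD173074 were highest in A1005. In that line the leukocyte gene Ptprc had 174 counts in DMSO and 339 in the deeper PD173074 library. The part of leukocyte RNA in the Spib and Cd74 counts was not tested. Itgbl1, an integrin beta-like gene, had 0, 2 and 3 counts in DMSO and 2, 18 and 164 counts with PD173074, and Rasl12, a small GTPase gene, had 0, 4 and 0 counts in DMSO and 3, 92 and 2 counts with PD173074. The lipid droplet gene Plin4 had 9, 9 and 0 counts in DMSO and 104, 306 and 9 counts with PD173074, and the matricellular gene Ccn5 had 11, 11 and 2 counts in DMSO and 669, 53 and 29 counts with PD173074. In all, 18 genes called higher had at most 3 counts in every DMSO library.

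**Figure D3:**
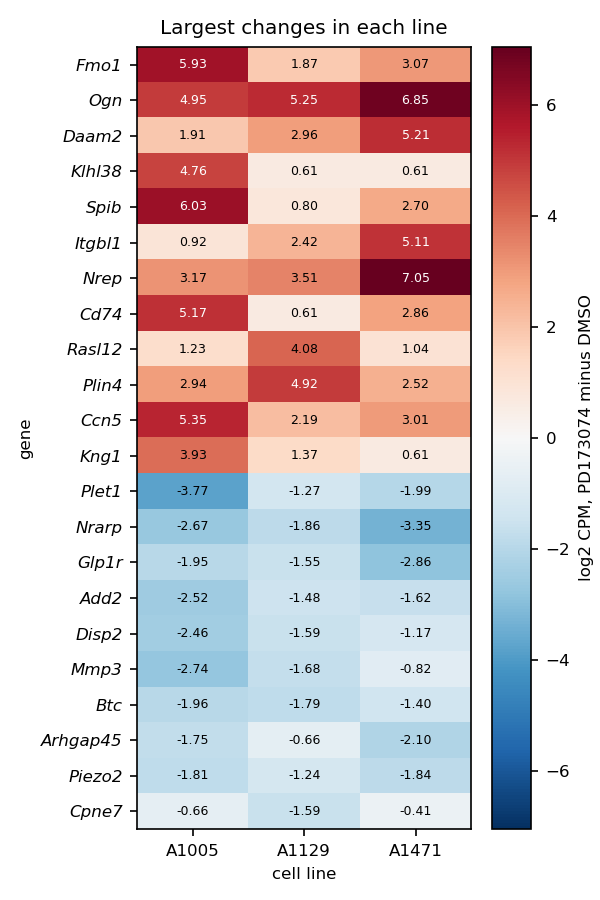
Difference in log2 CPM (prior count 2) between PD173074 and DMSO in each cell line for the 12 largest rises and 10 largest falls, red for higher and blue for lower. Rows such as Ogn and Nrep are deep red in all 3 columns, while Klhl38, Kng1 and Spib are strong in A1005 and pale elsewhere, and the falls are more even.

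Complement genes were among those that rose. Of 10 tested, 4 were called higher and none lower, and the list's median log2 fold change was 2.23 against 0.00365 over all genes tested. C3, the central complement protein, stood at 471, 112 and 91.03 CPM in DMSO and 1620.3, 422 and 734 CPM with PD173074 (log2 fold change 2.25 ± 0.29, adjusted p = 0.00734). The lectin-pathway protease Masp1 stood at 14.5, 0.197 and 0.138 CPM in DMSO and 96.1, 6.30 and 5.13 CPM with PD173074 (log2 fold change 3.29 ± 0.40, adjusted p = 0.00558). C1ra, a protease of the first complement component, stood at 12.6, 0.395 and 0.276 CPM in DMSO and 45.7, 2.86 and 6.62 CPM with PD173074 (log2 fold change 2.47 ± 0.49, adjusted p = 0.0308). These genes rose in every line, from levels in A1129 and A1471 that were below 1 CPM for all but C3. Without A1471 their adjusted p was 0.122 for C3, 0.0905 for Masp1 and 0.1445 for C1ra.

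Some further genes called higher belonged to no list used here and, apart from Il1rn, were picked out after their values were seen. Lbp, the lipopolysaccharide-binding protein, stood at 53.1, 10.3 and 0.967 CPM in DMSO and 259, 50.1 and 10.7 CPM with PD173074 (log2 fold change 2.47 ± 0.27, adjusted p = 0.00379). Cp, the copper-binding ferroxidase ceruloplasmin, was already abundant and stood at 495, 990.3 and 723 CPM in DMSO and 1411, 2129.9 and 2585 CPM with PD173074 (log2 fold change 1.505 ± 0.24, adjusted p = 0.0144). Both were higher in each line, and for Cp the groups did not overlap. Haptoglobin (Hp) stood at 6.87, 10.1 and 0.414 CPM in DMSO and 112, 50.7 and 4.70 CPM with PD173074 (log2 fold change 3.19 ± 0.67, adjusted p = 0.0428) and the metalloreductase gene Steap4 at 3.36, 9.54 and 1.31 CPM in DMSO and 25.6, 45.7 and 25.6 CPM with PD173074 (log2 fold change 3.16 ± 0.53, adjusted p = 0.0171). Il1rn, the interleukin-1 receptor antagonist, was almost confined to A1005, with 71, 0 and 0 counts in DMSO and 1059, 2 and 2 counts with PD173074. The same held for Orm1 (orosomucoid), with 91, 0 and 0 counts in DMSO and 583, 15 and 3 counts with PD173074. The serum amyloid genes Saa1 (log2 fold change 3.50, adjusted p = 0.0185) and Saa2 (log2 fold change 8.69, adjusted p = 0.0208) were called higher. Saa2 had 0, 0 and 0 counts in DMSO and 134, 29 and 0 counts with PD173074. Neither moved in A1471, where Saa1 and Saa2 had 0 counts in both groups. Il6st, the signal-transducing chain of the interleukin-6 receptor family, rose by a smaller step (log2 fold change 0.61 ± 0.10, adjusted p = 0.018), as did the NF-kappaB cofactor Bcl3 (log2 fold change 0.70 ± 0.15, adjusted p = 0.0445). Tlr2, a receptor for bacterial lipoproteins, stood at 11.5, 6.64 and 9.60 CPM in DMSO and 34.4, 15.96 and 37.7 CPM with PD173074 (log2 fold change 1.63 ± 0.25, adjusted p = 0.0143), and the death receptor Fas at 9.13, 7.89 and 2.62 CPM in DMSO and 30.4, 23.3 and 29.97 CPM with PD173074 (log2 fold change 2.23 ± 0.34, adjusted p = 0.0135).

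Collagen and matrix genes made up 10 of the genes called higher. Of 26 tested collagen and matrix genes, 10 were called higher (8 calls in this list by DESeq2) and none lower, 14 were higher in all 3 lines, and the median log2 fold change was 0.86. Col6a1 and Col6a2, chains of the microfibrillar collagen VI, were expressed in all lines. Col6a1 stood at 149, 156 and 245 CPM in DMSO and 325, 335 and 488 CPM with PD173074 (log2 fold change 1.08 ± 0.19, adjusted p = 0.0192), and Col6a2 at 13.9, 25.3 and 44.2 CPM in DMSO and 47.2, 71.8 and 116 CPM with PD173074 (log2 fold change 1.58 ± 0.27, adjusted p = 0.0173). Both groups were fully apart. The fibrillar collagens depended on the line. Col1a1 stood at 229, 0 and 0.0691 CPM in DMSO and 531, 0.143 and 0.569 CPM with PD173074, so its call (log2 fold change 1.30 ± 0.24, adjusted p = 0.0223) rests on A1005. Col1a2 followed the same pattern, and Col3a1 was high in A1005 and A1471, at 453, 3.42 and 297 CPM in DMSO and 906, 9.59 and 685 CPM with PD173074 (log2 fold change 1.17 ± 0.20, adjusted p = 0.0192). Col4a5 (log2 fold change 0.98 ± 0.21, adjusted p = 0.0448), Col12a1 (log2 fold change 2.63 ± 0.57, adjusted p = 0.0471) and the microfibril gene Fbn1 (log2 fold change 1.35 ± 0.23, adjusted p = 0.0173) were higher in each line. Postn (periostin), with 0, 0 and 1 counts in DMSO and 0, 5 and 88 counts with PD173074, and Col11a1, with 0, 16 and 2 counts in DMSO and 0, 55 and 199 counts with PD173074, came mostly from A1471. The main basement membrane chains Col4a1 and Col4a2 had log2 fold changes of -0.15 and -0.12 and were not called. In a list of Gdpd2 and small leucine-rich proteoglycans 6 of 15 genes were tested, and the rest were too low. Of the 6, 3 were called higher (Gdpd2, Ogn and Dcn), and the median of those tested was 2.29. Decorin (Dcn) stood at 2.11, 4.999 and 72.5 CPM in DMSO and 5.92, 13.02 and 170.1 CPM with PD173074 (log2 fold change 1.34 ± 0.14, adjusted p = 0.00379).

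Interferon response genes mostly had higher values, with few calls. Of 33 tested, 4 were called higher and none lower, 28 were higher in all 3 lines, and the median log2 fold change was 1.06. Taken line by line the median difference was 0.99 (A1005), 0.47 (A1129) and 1.92 (A1471). Irf1, a transcription factor of this response, stood at 62.9, 34.5 and 70.3 CPM in DMSO and 138, 56.1 and 165 CPM with PD173074 (log2 fold change 1.03 ± 0.14, adjusted p = 0.00903). Gbp2, a guanylate-binding protein, stood at 30.6, 16.6 and 14.2 CPM in DMSO and 137, 39.00 and 213 CPM with PD173074 (log2 fold change 2.40 ± 0.48, adjusted p = 0.032). Irgm1 (log2 fold change 1.26 ± 0.21, adjusted p = 0.0173) and Gbp10 (log2 fold change 2.02 ± 0.42, adjusted p = 0.0383) were also called. Gbp genes are close paralogs that can share reads, and Gbp10 is uncertain for that reason. Isg15, a ubiquitin-like protein gene, had a log2 fold change of 0.97 (adjusted p = 0.31).

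Other signalling lists held few calls each with the spread shared by all 12 libraries. Of 23 tested receptor tyrosine kinases outside the FGFR and Met lists, 2 were called, both higher (3 calls in this list by DESeq2, 6 in the 6 libraries alone). Pdgfrb, a receptor for platelet-derived growth factor, stood at 6.25, 0.46 and 5.25 CPM in DMSO and 24.2, 3.65 and 63.8 CPM with PD173074 (log2 fold change 2.77 ± 0.37, adjusted p = 0.00773), and the kinase-inactive ephrin receptor gene Ephb6 stood at 6.25, 2.04 and 2.42 CPM in DMSO and 22.1, 12.2 and 8.97 CPM with PD173074 (log2 fold change 2.03 ± 0.45, adjusted p = 0.0496). Of 23 tested Wnt pathway genes, 4 were called higher and none lower (median 0.24). They were the ligands Wnt4 (log2 fold change 2.99 ± 0.45, adjusted p = 0.0125), Wnt6 (log2 fold change 2.23 ± 0.40, adjusted p = 0.0211) and Wnt10b (log2 fold change 1.30 ± 0.27, adjusted p = 0.042) and the feedback inhibitor Axin2, a standard readout of beta-catenin signalling, at 5.78, 1.51 and 0.898 CPM in DMSO and 14.6, 3.51 and 4.34 CPM with PD173074 (log2 fold change 1.51 ± 0.31, adjusted p = 0.0374). Tgfb2 was the one called gene of 24 in the TGF beta and BMP list (2 calls by DESeq2, 3 in the 6 libraries alone), at 6.40, 2.30 and 2.69 CPM in DMSO and 20.5, 5.01 and 20.5 CPM with PD173074 (log2 fold change 1.97 ± 0.31, adjusted p = 0.0144). Gas1, a growth arrest gene, was the one called gene of 27 in the insulin, FoxO and growth arrest list, at 78.9, 79.7 and 84.8 CPM in DMSO and 167, 135 and 132 CPM with PD173074 (log2 fold change 0.83 ± 0.11, adjusted p = 0.00751). DESeq2 with the same block called 8 of the 27, and 8 were called in the 6 libraries alone. In that list 13 genes were higher in all 3 lines, 3 were lower in all 3, and 10 had an unadjusted p below 0.05. Pik3r1, the regulatory subunit of PI3K, stood at 93.3, 50.9 and 77.7 CPM in DMSO and 187, 145 and 154 CPM with PD173074 (log2 fold change 1.15 ± 0.21, adjusted p = 0.0222), and was picked out after its values were seen. The aryl hydrocarbon receptor target Cyp1b1 stood at 7.42, 1.38 and 0.553 CPM in DMSO and 47.2, 5.08 and 10.5 CPM with PD173074 (log2 fold change 2.76 ± 0.53, adjusted p = 0.0283) and was called with Fmo1 in a list of 9. Of 34 tested guidance genes, Ntn4 (log2 fold change 2.02 ± 0.43, adjusted p = 0.0429) and Sema3c (log2 fold change 1.43 ± 0.30, adjusted p = 0.0419) were higher and Sema7a was lower. DESeq2 called 7 of the 34, and 7 were called in the 6 libraries alone. In the sterol and fatty acid synthesis list 0 of 26 genes were called by edgeR, DESeq2 or limma-voom, and 0 had an unadjusted p below 0.05. Of 19 clock genes edgeR called 0 (4 with an unadjusted p below 0.05) and DESeq2 called 2. Of 12 mitochondrially encoded mRNAs edgeR called 0 (4 with an unadjusted p below 0.05), DESeq2 called 3, and 5 were called in the 6 libraries alone.

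**Figure D4:**
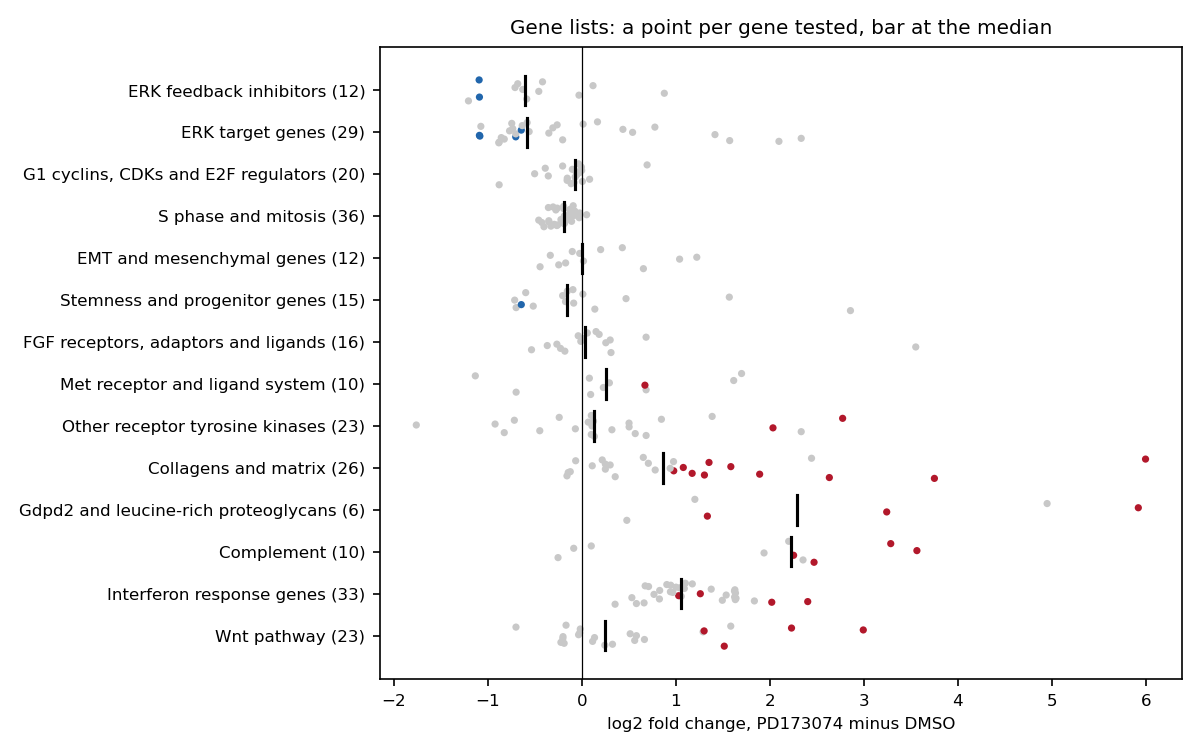
Log2 fold change of PD173074 minus DMSO for each tested gene of 14 lists, with the number tested in brackets, a bar at the median, red for called higher, blue for called lower and grey for not called. ERK lists lie mostly below 0, S phase and mitosis genes sit close to 0, and the complement, matrix and interferon lists lie mostly above 0.

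Among genes that fell, few belonged to one list. Glp1r, the receptor for the incretin hormone GLP-1, stood at 62.8, 15.6 and 82.9 CPM in DMSO and 16.2, 5.22 and 11.3 CPM with PD173074 (log2 fold change -2.15 ± 0.24, adjusted p = 0.00425). Nrarp, a Notch target that damps Notch signalling, stood at 21.9, 22.8 and 4.14 CPM in DMSO and 3.32, 6.15 and 0.285 CPM with PD173074 (log2 fold change -2.46 ± 0.35, adjusted p = 0.0104), and it was the one called gene of 13 in the Notch list (4 calls in the 6 libraries alone), where Hes1 was not called (log2 fold change -0.52 ± 0.52, adjusted p = 0.685). Btc, an EGF receptor ligand, stood at 1.09, 13.7 and 1.73 CPM in DMSO and 0.181, 3.86 and 0.569 CPM with PD173074 (log2 fold change -1.83 ± 0.33, adjusted p = 0.0211). Mmp3, the matrix protease stromelysin-1, covered a wide range between lines, at 533, 44.9 and 2.49 CPM in DMSO and 79.7, 13.9 and 1.35 CPM with PD173074 (log2 fold change -2.03 ± 0.38, adjusted p = 0.0252). Each of these fell in every line. Sema7a, a membrane-anchored semaphorin, stood at 15.6, 35.6 and 257 CPM in DMSO and 6.71, 18.5 and 105 CPM with PD173074 (log2 fold change -1.15 ± 0.15, adjusted p = 0.008), and Acsbg1, an acyl-CoA synthetase gene, at 40.9, 2.70 and 21.1 CPM in DMSO and 14.1, 1.14 and 7.76 CPM with PD173074 (log2 fold change -1.44 ± 0.17, adjusted p = 0.00552). The epithelial keratin gene Krt18 stood at 11.9, 38.1 and 10.01 CPM in DMSO and 5.74, 19.03 and 4.48 CPM with PD173074 (log2 fold change -1.07 ± 0.14, adjusted p = 0.00734) and the epithelial factor gene Grhl2 at 6.09, 3.09 and 9.67 CPM in DMSO and 1.39, 1.14 and 4.48 CPM with PD173074 (log2 fold change -1.51 ± 0.26, adjusted p = 0.0198), while Krt7 was called higher (log2 fold change 1.47 ± 0.28, adjusted p = 0.0259) in the same list of 16. Krt18 is itself in the luminal marker sum given above and was the one called gene of 4 tested luminal markers. Fabp4, a fatty acid carrier used as an adipocyte marker, stood at 30.7, 31.9 and 5.80 CPM in DMSO and 6.65, 16.7 and 3.63 CPM with PD173074 (log2 fold change -1.31 ± 0.24, adjusted p = 0.0248), with Adipoq and Lep at 0. Asns, asparagine synthetase, was the one called gene of 15 in the stress list (log2 fold change -0.60 ± 0.11, adjusted p = 0.0255). DESeq2 called 2 of the 15, and 4 were called in the 6 libraries alone.

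Further large falls were at low levels. Plet1, a surface protein of epithelial progenitors, stood at 15.8, 1.05 and 3.52 CPM in DMSO and 1.03, 0.358 and 0.783 CPM with PD173074 (log2 fold change -2.93 ± 0.48, adjusted p = 0.0159). The cytoskeletal gene Add2 stood at 4.45, 1.64 and 2.69 CPM in DMSO and 0.665, 0.501 and 0.783 CPM with PD173074 (log2 fold change -2.11 ± 0.28, adjusted p = 0.00798) and the mechanosensitive channel gene Piezo2 at 2.03, 8.16 and 6.22 CPM in DMSO and 0.483, 3.36 and 1.64 CPM with PD173074 (log2 fold change -1.67 ± 0.35, adjusted p = 0.0383). Disp2 (log2 fold change -2.05 ± 0.35, adjusted p = 0.0185), Arhgap45 (log2 fold change -1.74 ± 0.37, adjusted p = 0.0448) and Cpne7 (log2 fold change -1.62 ± 0.32, adjusted p = 0.031) completed the 10 largest, and Cpne7 was at 2 counts or fewer outside A1129. Rasa4, a Ras GTPase-activating protein gene, also fell, at 14.2, 33.2 and 20.7 CPM in DMSO and 8.16, 14.5 and 7.62 CPM with PD173074 (log2 fold change -1.15 ± 0.20, adjusted p = 0.0185), and was picked out after its values were seen.

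Genes tied to the mesenchymal and stem-like state were mostly not called. Of 12 tested EMT genes, 0 were called (3 by DESeq2, 0 by limma-voom, 3 in the 6 libraries alone), 5 had an unadjusted p below 0.05, and the median log2 fold change was -0.00288. Twist1, a driver of EMT, stood at 125, 115 and 100.3 CPM in DMSO and 84.5, 91.7 and 91.5 CPM with PD173074, lower in each line by a small step (log2 fold change -0.34 ± 0.10, adjusted p = 0.142). Cd44 stood at 431, 561 and 710.3 CPM in DMSO and 320.3, 349 and 373 CPM with PD173074, and its PD173074 libraries all lay below its DMSO libraries without a call (log2 fold change -0.70 ± 0.26, adjusted p = 0.224). In the 6 libraries alone, paired by line, Cd44 was called (adjusted p = 0.0199). Of 15 tested stemness genes, Hmga2 alone was called, against 5 in the 6 libraries alone. Mybl2, a cell cycle regulator, had a log2 fold change of -0.20 (95% interval -0.49 to 0.08). Aldh1l1, a folate enzyme gene, had 5, 1 and 0 counts in DMSO and 29, 2 and 19 counts with PD173074 (adjusted p = 0.126), and the BH3-only gene Bad had a log2 fold change of 0.20 (95% interval -0.04 to 0.44).

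The effect of PD173074 with Met active was then set beside its effect with Met inhibited, that is, Combo minus Crizotinib, which uses none of the same libraries. There 7389 of 13836 genes were called (53.4%). Of the 296 genes called with PD173074 alone, 294 had the same sign there and all 294 were called. Over all genes tested, 76.5% had the same sign. The exceptions were Fbn1 and a predicted gene. The median log2 fold change of the 224 genes called higher was 1.55 with Met active and 2.57 with Met inhibited, and that of the 72 called lower was -0.85 and -1.91. The difference between the 2 effects was called for 2241 of 13836 genes (16.2%), 755 higher and 1486 lower. Without A1129 496 were called, without A1471 423, and without the block 127. Among the 296 it was called for 79 of those higher and 45 of those lower. The 296 were chosen on libraries that also enter this difference, so this count is a description.

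**Figure D5:**
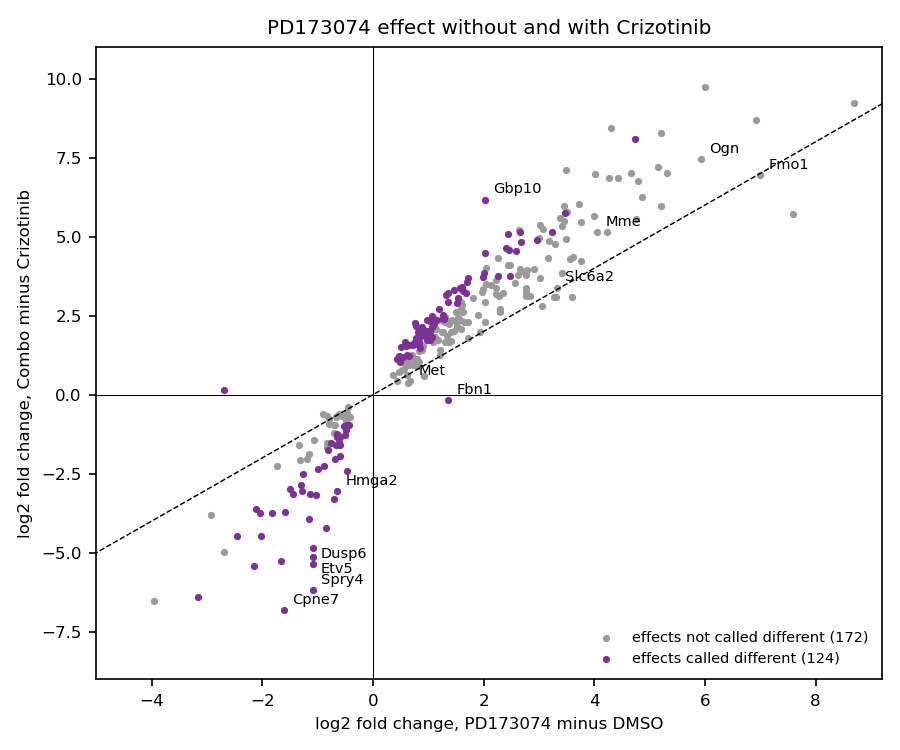
Log2 fold change of PD173074 minus DMSO (horizontal) against Combo minus Crizotinib (vertical) for the 296 genes called with PD173074 alone, with a dashed line where both are equal and purple for genes whose 2 effects were called different. Most points lie further from 0 on the vertical axis, ERK readouts such as Spry4 and Dusp6 far below the line, and Fmo1, Slc6a2 and Met close to it.

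ERK readouts were among the genes whose 2 effects were called different. Dusp6 had a log2 fold change of -1.09 with Met active and -5.37 with Met inhibited (difference -4.28, adjusted p = 3.93e-05), where it stood at 270.5, 261 and 143 CPM with Crizotinib and 9.51, 4.01 and 3.17 CPM with both. Etv5 had log2 fold changes of -1.09 and -5.12 (difference -4.03, adjusted p = 3.03e-05), Spry4 of -1.09 and -6.19 (difference -5.10, adjusted p = 6.54e-05), and Hmga2 of -0.64 and -3.06 (difference -2.41, adjusted p = 3.03e-05). Ccnd1, not called with Met active, had -0.88 and -5.35 (difference -4.47, adjusted p = 9.03e-05). In the lists, the difference was called for 8 of 12 ERK feedback inhibitors, 16 of 29 ERK targets, 36 of 36 S phase and mitosis genes and 16 of 20 G1 genes. For all of these the PD173074 effect was lower with Met inhibited, except for 2 of the G1 genes. The median log2 fold change of the S phase and mitosis list was -0.19 with Met active and -1.98 with Met inhibited. Egr1 had log2 fold changes of 2.10 and -1.46, so that its values pointed in opposite directions (difference -3.56, adjusted p = 0.019).

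For other genes the difference between the 2 effects was not called, and its interval is given where the counts allow one. Fmo1 had log2 fold changes of 6.996 and 6.95 (adjusted p of the difference 0.901), with no interval given because DMSO held 1 count of it in all. Slc6a2, the noradrenaline transporter gene, had 3.32 and 3.39 (difference 0.06, 95% interval -1.21 to 1.34) and was picked out after its values were seen. Pdgfrb had 2.77 and 3.36 (difference 0.59, 95% interval -0.54 to 1.71). Gas1 had 0.83 and 1.03 (difference 0.20, 95% interval -0.14 to 0.54), Krt18 had -1.07 and -1.45 (difference -0.38, 95% interval -0.81 to 0.05), and Met had 0.67 and 0.43 (difference -0.24, 95% interval -0.69 to 0.22). The intervals of Gas1, Krt18 and Met stayed within 1 log2 unit of 0, while those of Slc6a2 and Pdgfrb reached beyond it. Mme had 4.06 and 5.15 (difference 1.10, 95% interval 0.06 to 2.14), an interval that leaves out 0 without a call after adjustment. Fbn1 was the exception, raised with Met active and not with Met inhibited (1.35 and -0.18; difference -1.54, adjusted p = 0.0174).

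PD173074 and Crizotinib alone were also compared with each other, which shares the PD173074 libraries with the comparison above. The 2 agents differ in their target kinase and were both given at 1 µM for 24 h. Between them 584 of 13836 genes were called (4.22%), 368 higher with PD173074 and 216 lower. Without A1005 267 were called, without A1129 357 and without A1471 74, and without the block edgeR called 0 (444 with an unadjusted p below 0.05) and DESeq2 52. Mme stood at 13.05, 0.924 and 0.791 CPM with Crizotinib against the PD173074 levels given above (log2 difference 4.20 ± 0.35, adjusted p = 0.00109). Il1rn stood at 4.44, 0 and 0 CPM with Crizotinib (log2 difference 3.92 ± 0.35, adjusted p = 0.00109), and Krt18 at 19.3, 49.4 and 12.4 CPM with Crizotinib (log2 difference -1.52 ± 0.14, adjusted p = 0.00109). Ackr3, a scavenger receptor for the chemokine CXCL12, stood at 75.1, 22.4 and 17.96 CPM in DMSO and 175, 33.2 and 39.2 CPM with PD173074 and at 62.7, 11.4 and 11.4 CPM with Crizotinib (log2 difference 1.59 ± 0.14, adjusted p = 0.00109). Kcnj2, an inward-rectifier potassium channel gene, stood at 2.89, 1.84 and 0.138 CPM in DMSO and 20.2, 7.51 and 2.06 CPM with PD173074 and at 1.23, 0.991 and 0.288 CPM with Crizotinib (log2 difference 3.45 ± 0.30, adjusted p = 0.00109). These 5 genes had the lowest p in this comparison among those called with PD173074 alone. Of the ERK feedback inhibitors 3 of 12 were lower with PD173074 than with Crizotinib, among them Dusp6, at 270.5, 261 and 143 CPM with Crizotinib (log2 difference -1.39 ± 0.18, adjusted p = 0.00284). Of 33 interferon response genes 13 were higher with PD173074 and none lower. The median of that list was 1.06 for PD173074 minus DMSO and -0.63 for Crizotinib minus DMSO.

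Promoter sequence was examined for 6 motifs on both strands, in windows from 250 bases before to 50 bases after each RefSeq start (build GRCm38.p6). Windows were matched by symbol for 165 of the 224 genes called higher, 59 of the 72 called lower and 10035 of all tested. The AP-1 motif (TGANTCA), bound by Fos and Jun dimers, was in 12.1% of genes called higher and 13.6% of those called lower, against 6.48% of all. The ETS motif (CCGGAAG) was in 7.88% and 5.08%, against 20.4% of all. The forkhead motif (TGTTTAC) was in 1.82% and 3.39% against 2.98%, the E2F motif (TTTCCCGC) in 1.82% and 3.39% against 2.46%, the CRE motif (TGACGTCA) in 3.64% and 1.69% against 3.57%, and the E-box (CACGTG) in 7.88% and 11.9% against 11.7%. These shares carry no test, and a match is only a match of letters. The 250 bases before the start of Fas, which rose, and of Mmp3, which fell, are shown since both hold the same AP-1 letters, in capitals, in front of genes that moved in opposite directions. In Fas (chr19:34290409-34290658, plus strand) the match begins 211 bases before the start, and in Mmp3 (chr9:7445572-7445821, plus strand) 46 bases before it.
Fas: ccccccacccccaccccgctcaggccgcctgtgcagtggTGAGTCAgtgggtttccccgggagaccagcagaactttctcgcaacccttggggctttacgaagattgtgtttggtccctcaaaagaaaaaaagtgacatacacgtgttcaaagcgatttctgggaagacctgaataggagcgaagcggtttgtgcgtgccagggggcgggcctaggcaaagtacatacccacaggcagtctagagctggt
Mmp3: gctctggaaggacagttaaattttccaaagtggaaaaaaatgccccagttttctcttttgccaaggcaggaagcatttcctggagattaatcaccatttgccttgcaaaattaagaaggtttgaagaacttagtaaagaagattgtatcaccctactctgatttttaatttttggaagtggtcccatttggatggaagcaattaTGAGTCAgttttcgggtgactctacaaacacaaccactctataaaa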

How the data were processed

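RNA-sequencing reads were processed by the authors with bcl2fastq, STAR and HTSeq on mouse build mm10, as the submitters' processing notes name them, and deposited as raw counts of reads per Ensembl gene for 55573 genes. The annotation release and the strand setting of the counting are not given in the sources used here, so overlapping and antisense genes could share counts. Groups and cell lines were taken from the sample labels. No column of per-sample values was left unused.

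Genes passed filterByExpr (minimum count 10, minimum total 15) over all 12 libraries, which kept 13836 and at least 99.8463% of counts. Counts were scaled by TMM and tested with edgeR 4.0.16 (glmQLFit and glmQLFTest, R 4.3.3) on treatment plus cell line, with Benjamini-Hochberg adjustment at 0.05. All 12 libraries shared 1 estimate of the spread. Errors of log2 fold changes are SE from the fit, the log2 fold change divided by the square root of F (n = 3 lines per treatment) and 95% intervals use the same SE. The study's methods describe an unpaired analysis. The block was used because the same line received every treatment, and the deviations from group means of libraries of 1 line correlated with r of at least 0.766 (18 pairs). The pairing comes from the labels. Per-line differences use log2 CPM with a prior count of 2. DESeq2 1.42.0 and limma 3.58.1 were alternatives. The functions that fit edgeR, DESeq2 and limma-voom were tested on simulated counts. The other steps were not tested in that way. With 3 lines the precision of single genes is limited, and a count of 0 allows up to 3 counts per library.

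Named genes were the 12 largest rises and 10 largest falls among called genes with average log2 CPM of at least 1 and 1 direction in all lines, the 6 lowest p in each direction, called list members, list members with a defining role, 10 genes discussed by the study, and the 5 lowest p of both other comparisons among called genes. Genes outside that rule were picked out after their values were seen, Slc6a2, Hhip and Ncam1 among them. Predicted genes were counted but not described. Some genes of the lists are not reported here by name. The comparison, the lists and this rule were chosen with earlier results of these data known. Gene positions are from GENCODE vM21 (GRCm38, the same assembly as mm10) and promoters from RefSeq (GRCm38.p6).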

Additional observations from a re-analysis of the deposited data

Results flagged for a closer look

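The effect of PD173074 with Crizotinib differed from its effect without it, in edgeR's test of the difference itself, for 55 of the named genes. Each value here is the log2 fold change of Combo minus Crizotinib less that of PD173074 minus DMSO, over 3 lines a side, and no cause was tested.

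The genes whose PD173074 effect was lower with Met inhibited included ERK feedback inhibitors: Spry4 -5.10, Dusp6 -4.28, Dusp5 -2.66, Spred2 -2.39, Spred3 -1.89, Spry2 -1.79, Spred1 -1.62 and Dusp7 -0.73. ERK targets gave Areg -4.64, Ccnd1 -4.47, Etv5 -4.03, Etv4 -3.77, Egr1 -3.56, Fosl1 -2.75, Etv1 -2.58 and Hmga2 -2.41. Cell cycle and mesenchymal genes gave Mybl2 -2.68, Pimreg -1.96, Mki67 -1.95, Cd44 -1.67 and Twist1 -0.89. Other genes in this direction were Cpne7 -5.20, Piezo2 -3.58, Hhip -3.37 (a Hedgehog-binding protein), Glp1r -3.27, Sema7a -2.77, Mmp3 -2.43, Gm49774 -2.12, Nrarp -2.01, Btc -1.92, Acsbg1 -1.71, Disp2 -1.70, Fabp4 -1.54, Fbn1 -1.54, Add2 -1.501, Grhl2 -1.48 and Asns -0.73.

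The genes whose PD173074 effect was higher with Met inhibited were Gbp10 4.15, Rasl12 3.34, Bmf 2.27, Gbp2 2.22, Orm1 2.11, Kcnj2 1.95, Prss23 1.93, Gdpd2 1.90, Krt7 1.86, Tlr2 1.63, C3 1.495, Lbp 1.29, Irgm1 1.15, Col4a5 1.03, Ackr3 0.76, Ncam1 0.75 (a neural cell adhesion gene), Irf1 0.70 and Bad 0.66.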

How the results depend on the processing

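The count of genes called depended on the block, the filter and the lines, and the cause was not tested beyond what each setting changes by construction. For PD173074 against DMSO (296 called), the fit with no replicate block called 0 genes, DESeq2 with the replicate block 635, DESeq2 with no replicate block 17, testing every gene with a count 931, a floor of 10 counts in each library 117, the 6 libraries alone 776 with the replicate block and 0 with no replicate block, and a log2 fold change of at least 1.5 kept 135. Leaving out a line gave 4 to 131. Of the 635, 277 were among the 296, and of the 776, 241 were. DESeq2 size factors, total counts and limma-voom gave 284 to 366. For the effect with against without Crizotinib (2241 called), no replicate block gave 127, DESeq2 with no replicate block 459, a log2 difference of at least 1.5 left 487, and leaving out a line gave 423 to 1679. For PD173074 against Crizotinib (584 called), no replicate block gave 0 (444 with an unadjusted p below 0.05), DESeq2 with the replicate block 934 and with no replicate block 52, every gene with a count 1244, the floor of 10 counts 328, a log2 difference of at least 1.5 left 249, and leaving out a line gave 74 to 357.

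The 5 named genes that changed sign were not called. With no replicate block the log2 fold change was -0.22 for Hgf (-0.23 by DESeq2) and 0.11 for Fgf2 (0.11 by DESeq2, 0.12 in the 6 libraries). Leaving out a line gave -0.15 to -0.013 for Hgf, -1.01 to 0.098 for Fgf2, -0.013 to 0.21 for Spry1, -0.10 to 0.069 for Dusp7 and -0.19 to 0.18 for Mki67. With a prior count of 0.5, all 22 largest changes moved by less than the spread between lines. Low DMSO counts limit the folds of the largest rises.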
